A study of Homo sapiens with 2 samples.

Results

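The genes described here are those of AMPK and mTORC1 nutrient sensing, the machinery by which a cell reads its energy and amino acid supply. They were taken by gene symbol from a fixed list of AMPK subunits and upstream kinases, sestrins, REDD1, and the TSC, Rag, GATOR and mTOR complexes. All 45 listed genes were found among the 17987 genes of the deposited table, and all 45 were among the 17054 genes with a value. The cells were HCT116, a human colorectal carcinoma line labelled as wild type, profiled by RNA-Seq in bulk. The glucose deprivation library came from cells given DMEM with 0 mM glucose over 24 h, and the other library from cells in normal medium, 1 library each. The column names of the table call these cells NC, the paper's name for cells whose EZH2 was not knocked down. Each value below is the authors' log2 fold change, glucose deprivation over normal medium, so that a positive value is a higher level under glucose deprivation. The table gives no level for either library, and depth is unknown. With 1 library per condition there was no replicate check, no standard error could be given, and the effect of glucose cannot be told apart from anything else in which these cultures differed. In bulk RNA, a different level in every cell and a different share of cells with that level cannot be told apart either.

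AMPK is a kinase of a catalytic alpha, a scaffolding beta and a nucleotide-binding gamma subunit that is activated when AMP rises against ATP, and it restrains growth and anabolic enzymes. mTORC1 is a growth-promoting kinase complex that is active at the lysosome when the small GTPase RHEB and the Rag GTPases both signal that energy, growth factors and amino acids are present. Much of this control acts through protein modification and binding rather than through transcript levels, so the values below speak of the transcripts alone.

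Most of these genes had small values, and the 3 beyond 1 on the log2 scale belonged to the sestrins and DDIT4. The median of the 45 members was -0.09 on the log2 scale, beside -0.12 over all genes with a value. The middle 50% of the members lay between -0.35 and 0.36, against -0.67 and 0.35 over all genes. By size alone 38 members (84.4%) lay within 0.75 of 0 on the log2 scale, against 64.1% of all genes. A gene was called lower below -0.75 and higher above a fold of 1.2 (0.26 on the log2 scale), the sizes of the study's methods, with a false discovery rate (FDR) of at most 0.001 by the Poisson test of the authors, which sets the reads of one library against those of the other and says nothing of replicate cultures. By these rules 14 members (31.1%) were called higher, where 15.9% of all genes were, and 2 members (4.44%) were called lower, where 13.1% of all genes were. An increase had to reach only the smaller of these sizes, so the counts in both directions cannot be set against each other. With 0.75 asked of both directions, 5 members were called higher, where 6.85% of all genes were, and 7 members (15.6%) were called in either direction, where 19.9% of all genes were. With a fold of 1.2 asked of both directions, 11 members (24.4%) were called lower, where 25.6% of all genes were. The share of called members was thus near that of all genes for decreases at the smaller size, under it for decreases at the larger size and above it for increases. Of the members, 28 (62.2%) had an FDR of at most 0.001, against 44.9% of all genes. Without levels the members could not be set against genes of like level. Whether level accounts for any of these differences from all genes was therefore not tested.

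**Figure D1:**
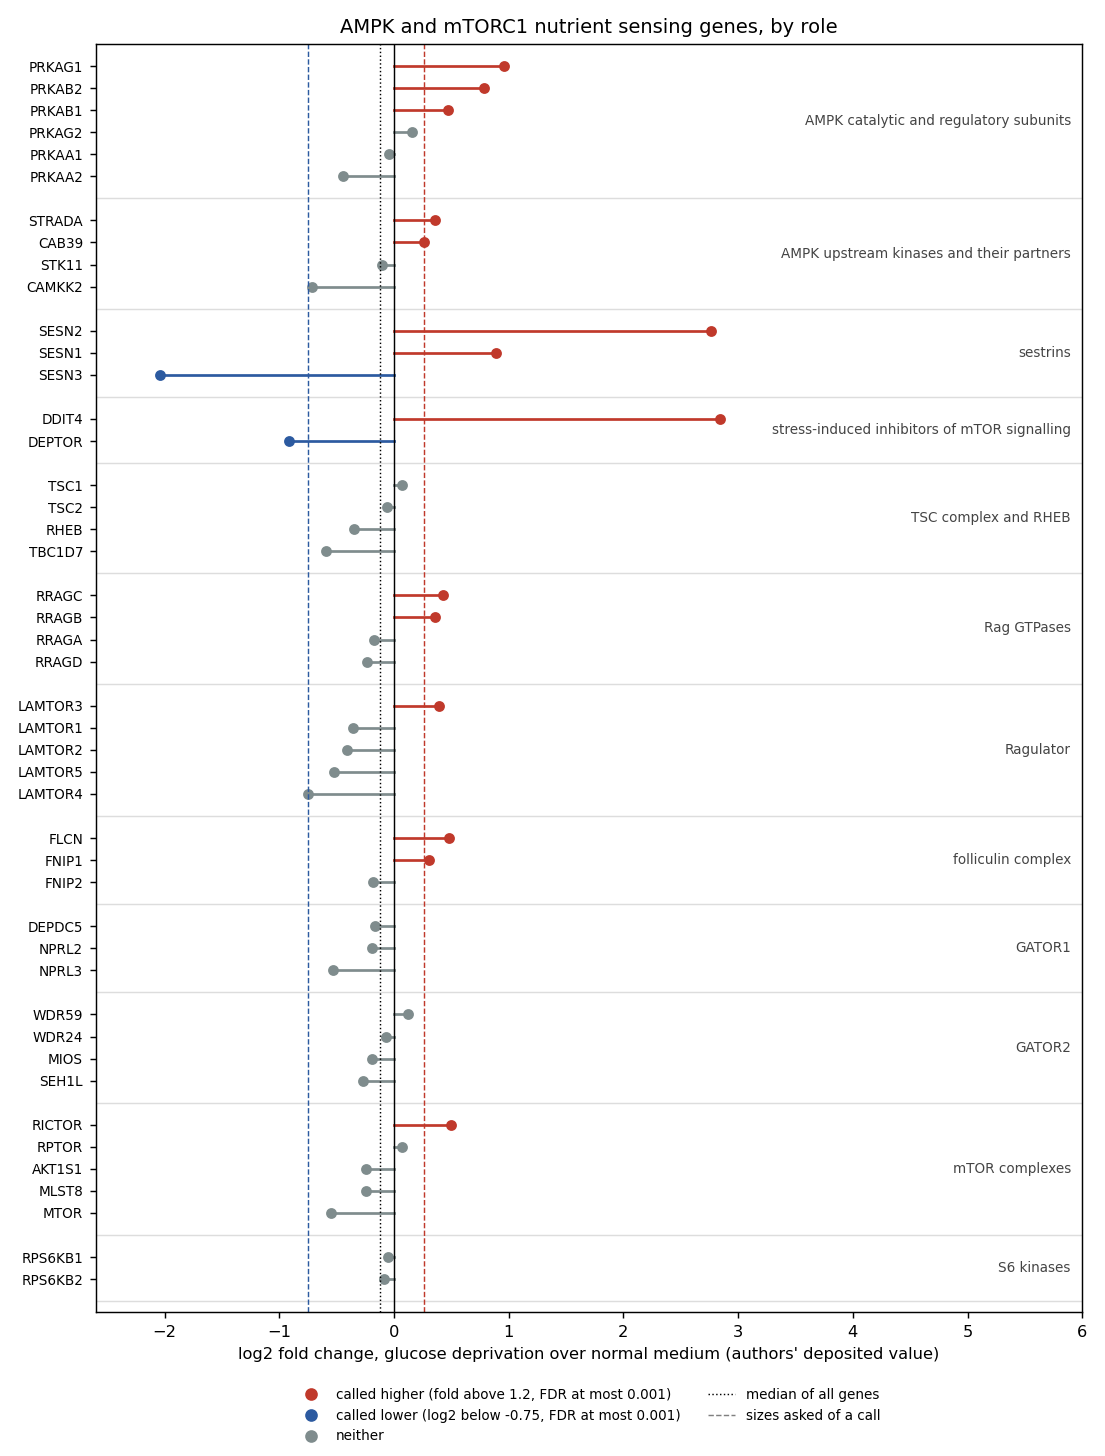
Log2 fold change of each of the 45 members (x axis, glucose deprivation over normal medium, the authors' deposited value; 1 library per condition), grouped by role, with red for called higher, blue for called lower and grey for neither. DDIT4 (2.84), SESN2 (2.76) and SESN3 (-2.04) stand far from 0, and the subunits of the TSC, Rag, Ragulator, GATOR and mTOR complexes lie between -0.75 and 0.50.

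The 3 sestrins had the widest spread of any family among these genes. Sestrins are stress-inducible proteins that hold back mTORC1 through GATOR2 and favour AMPK activity. SESN2, a leucine sensor and a known target of ATF4 and p53, had a log2 fold change of 2.76, a level 6.79-fold higher under glucose deprivation, with an FDR listed as 0 in the authors' deposited table. SESN1, a p53 target, stood at 0.89, a level 1.86-fold higher (FDR 3.06e-15). SESN3, a target of the FOXO factors, stood at -2.04, a level 4.11-fold lower (FDR 6.32e-34). The paralogs thus had values of both signs, and SESN2 and SESN3 differed by 4.80 on the log2 scale, a ratio of their folds of 27.9. Such a difference within a pair does not depend on how the 2 libraries were scaled. Among all genes, SESN2 ranked at percentile 98.2 and SESN3 at percentile 4.66.

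DDIT4 had the highest value of all members. It encodes REDD1, which is induced by hypoxia, energy stress and ATF4 and restrains mTORC1 through the TSC complex. Its log2 fold change of 2.84 was a level 7.16-fold higher under glucose deprivation, with an FDR listed as 0, and its percentile among all genes was 98.5. DEPTOR, an inhibitor that binds mTOR directly, stood at -0.91, a level 1.88-fold lower (FDR 9.44e-06). DEPTOR and SESN3 were the only members called lower. DDIT4L, the paralog of DDIT4, is outside the list and stood at -1.88 (FDR 6.17e-60), so this pair of paralogs also took values of opposite sign.

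The promoters of the pair with the highest values and of the sestrin with the lowest value are shown to set the regulatory sequence beside the values. They are RefSeq sequences of the build GRCh38.p14, from 250 bases before to 50 bases after the start of the gene, 5′ to 3′ on the strand of the gene, and the build behind the deposited values may differ. Capitals mark the CCAAT box, here as its reverse complement ATTGG. DDIT4 is at chr10:72273674-72273973 on the plus strand, SESN2 at chr1:28259268-28259567 on the plus strand and SESN3 at chr11:95232426-95232725 on the minus strand.
DDIT4: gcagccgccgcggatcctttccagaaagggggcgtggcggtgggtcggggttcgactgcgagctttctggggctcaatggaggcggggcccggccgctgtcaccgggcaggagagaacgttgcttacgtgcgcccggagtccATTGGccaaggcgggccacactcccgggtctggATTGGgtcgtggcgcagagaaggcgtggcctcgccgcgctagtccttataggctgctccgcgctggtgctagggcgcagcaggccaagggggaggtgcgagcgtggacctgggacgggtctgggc
SESN2: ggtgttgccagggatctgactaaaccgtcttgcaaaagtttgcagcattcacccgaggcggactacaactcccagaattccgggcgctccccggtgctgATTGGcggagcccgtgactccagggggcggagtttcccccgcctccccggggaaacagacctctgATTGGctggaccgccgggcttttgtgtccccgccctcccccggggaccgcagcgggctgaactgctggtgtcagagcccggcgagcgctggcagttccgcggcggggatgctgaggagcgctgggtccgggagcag
SESN3: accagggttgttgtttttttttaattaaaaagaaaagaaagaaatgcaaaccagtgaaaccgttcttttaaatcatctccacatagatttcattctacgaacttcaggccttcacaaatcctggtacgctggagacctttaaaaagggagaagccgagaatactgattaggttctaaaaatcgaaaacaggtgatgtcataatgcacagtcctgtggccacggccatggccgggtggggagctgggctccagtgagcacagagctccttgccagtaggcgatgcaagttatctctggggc

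Both the DDIT4 and the SESN2 window hold 2 CCAAT boxes, which start at positions -108 and -75 in DDIT4 and at -151 and -86 in SESN2, counted from the start site. SESN3 holds none. Of the 38 members with a promoter in the table, 17 hold the motif, in 19 of their 51 promoters. MTOR and STK11 hold 3 matches each and LAMTOR4, RHEB, WDR59 and NPRL2 hold 2 each, and none of these 6 was called higher. FNIP2, also not called, holds 2 in 1 promoter and 1 in another. Of the remaining carriers, SESN1, PRKAB2, RRAGC, FNIP1 and RICTOR were called higher, and CAMKK2, LAMTOR1 and PRKAG2 were not. Of all 35116 promoters in the table, 34.6% hold at least 1 CCAAT match on either strand and 10.8% hold 2 or more. DDIT4 has 69.7% G and C in these 300 bases and SESN2 67.0%, and SESN3 has less than either. CCAAT was added to the search after the values were seen, and a match is a description of letters and no evidence of binding. The letters TGATGCAA, a form of the composite element bound by ATF4, and TGACGTCA, the cyclic AMP response element, were searched on both strands, and neither is in these 3 windows.

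AMPK itself differed among its subunits, with 3 of the 4 regulatory subunits on the list called higher and neither catalytic one. PRKAG1, the widely expressed gamma subunit, had a log2 fold change of 0.96, a level 1.94-fold higher (FDR 2.28e-70). The beta subunits PRKAB2 at 0.78, 1.72-fold higher (FDR 1.34e-19), and PRKAB1 at 0.47, 1.38-fold higher (FDR 1.81e-06), were called higher as well. PRKAG2, another gamma subunit, stood at 0.16 and did not pass the FDR (0.00372). The gamma subunit PRKAG3 is outside the list and is named here after its value was seen. It stood at -1.0 and did not pass the FDR (0.385). The catalytic subunits PRKAA1, at -0.04 (FDR 0.578), and PRKAA2, at -0.45 (FDR 0.012), were not called, and PRKAA1 changed its sign once the median of all genes was subtracted from every value (centring). PRKAG1 and PRKAG2 differed by 0.80 between them, the beta subunits by 0.32 and the catalytic subunits by 0.40 on the log2 scale. The 6 subunits on the list together had a median of 0.31, with 3 called higher and none lower.

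Of the kinases that act on AMPK, none was called. STK11 (LKB1), which phosphorylates AMPK under energy stress, stood at -0.11 (FDR 0.122), a value whose sign turned with centring. CAMKK2, the calcium-dependent AMPK kinase, stood at -0.71, a level 1.64-fold lower (FDR 5.55e-25), and missed the size asked of a decrease. Of the partners that keep LKB1 active, the pseudokinase STRADA had a value of 0.36 (FDR 6.47e-05) and the scaffold CAB39 (MO25) 0.265 (FDR 3.07e-08), which is just above the size asked of an increase. Their paralogs, which are outside the list, had negative values. STRADB was called lower at -0.83 (FDR 1.8e-12), and CAB39L, named here after its value was seen, stood at -0.64 and did not pass the FDR (0.00338).

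**Figure D2:**
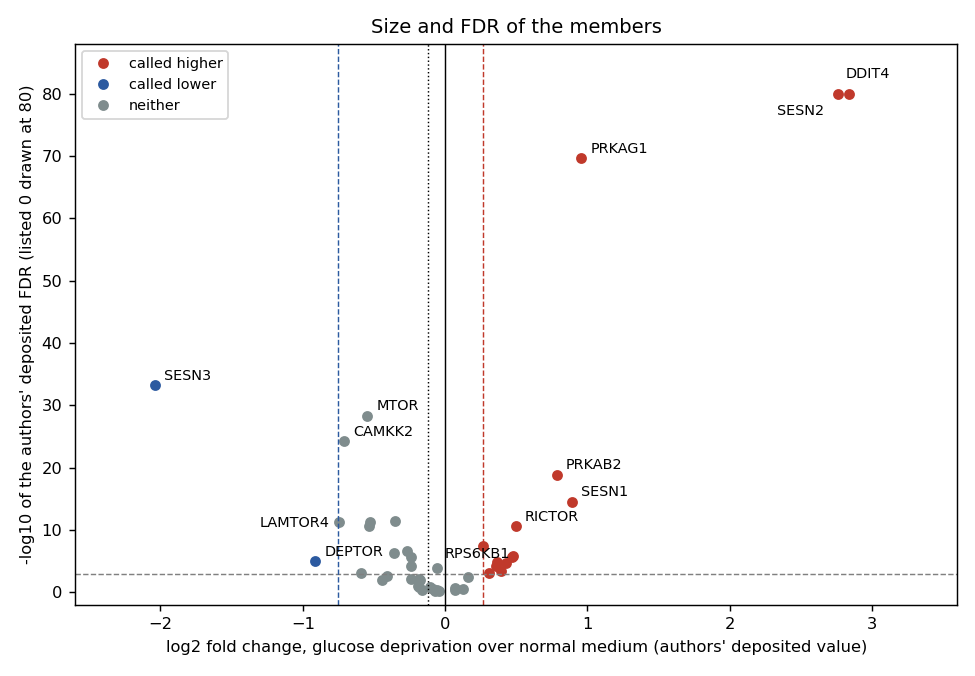
Log2 fold change of the 45 members (x axis) against -log10 of the authors' deposited FDR (y axis), with the 2 members listed at an FDR of 0 drawn at the top. DDIT4, SESN2 and PRKAG1 stand highest, whereas CAMKK2 (-0.71) and MTOR (-0.55) had a low FDR but a decrease smaller than 0.75.

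The TSC complex, the brake on RHEB to which REDD1 signals, had no called subunit. TSC1 stood at 0.07 (FDR 0.46) and TSC2 at -0.06 (FDR 0.461), while the accessory subunit TBC1D7 stood at -0.59 (FDR 0.000951). RHEB, the direct activator of mTORC1, stood at -0.35, a level 1.27-fold lower (FDR 4.03e-12). RHEB and TBC1D7 thus passed the FDR and the fold of 1.2 but not the size of 0.75.

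The Rag GTPases work as pairs of RRAGA or RRAGB with RRAGC or RRAGD, and within each kind 1 gene was called higher and the other had a negative value. RRAGC stood at 0.42, 1.34-fold higher (FDR 1.77e-05), against -0.24 for RRAGD (FDR 0.00837). RRAGB stood at 0.36, 1.29-fold higher (FDR 1.23e-05), against -0.17 for RRAGA (FDR 0.00941). The difference within the first pair was 0.66 and within the second 0.54 on the log2 scale.

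Ragulator, the scaffold that holds the Rag GTPases on the lysosome, had 4 of 5 subunits with negative values. Over all genes with a value, only 41.5% stood above 0. LAMTOR4 stood at -0.748, just short of the -0.75 asked of a decrease, a level 1.68-fold lower (FDR 4.58e-12). LAMTOR5 stood at -0.53 (FDR 4.45e-12), LAMTOR2 at -0.41 (FDR 0.00215) and LAMTOR1 at -0.36 (FDR 4.57e-07). The exception was LAMTOR3, called higher at 0.39 (FDR 0.000384), and it differed from LAMTOR4 by 1.14 on the log2 scale. The median of the complex was -0.41, the lowest of the 12 roles. At a fold of 1.2 in both directions, LAMTOR1, LAMTOR4 and LAMTOR5 (60.0% of the complex) would be called lower, where 25.6% of all genes were.

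The folliculin complex, which acts on RRAGC and RRAGD as a GTPase-activating protein, had 2 of 3 genes called higher. FLCN stood at 0.48, 1.39-fold higher (FDR 1.48e-06), and FNIP1 at 0.31, 1.24-fold higher (FDR 0.000897). FNIP2, the paralog of FNIP1, stood at -0.19 (FDR 0.0069).

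Neither GATOR complex had a called subunit. GATOR1 inactivates RRAGA and RRAGB when amino acids are short, and its subunits stood at -0.53 for NPRL3 (FDR 1.9e-11), -0.19 for NPRL2 (FDR 0.113) and -0.16 for DEPDC5 (FDR 0.482). GATOR2 opposes GATOR1 and is the complex that SESN2 binds. Its subunits stood at 0.12 for WDR59, -0.07 for WDR24, -0.19 for MIOS and -0.27 for SEH1L, which is also a subunit of the nuclear pore. Of these 4 only SEH1L passed the FDR (2.2e-07). At a fold of 1.2 in both directions, NPRL3 and SEH1L would be called lower, where 25.6% of all genes were.

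Of the mTOR complexes, the kinase and the partner that defines mTORC2 had values of opposite sign. MTOR stood at -0.55, a level 1.46-fold lower (FDR 4.5e-29), which is short of the size asked of a decrease. RICTOR, the scaffold of mTORC2, was called higher at 0.50, 1.41-fold (FDR 2.24e-11), and differed from MTOR by 1.04 on the log2 scale. RPTOR, the scaffold of mTORC1, stood at 0.07 (FDR 0.223). MLST8, shared by both complexes, and AKT1S1 (PRAS40), an inhibitor within mTORC1, both stood at -0.24, with an FDR of 5.05e-05 for MLST8 and 2.49e-06 for AKT1S1. The S6 kinases, substrates of mTORC1 that drive protein synthesis, stood at -0.05 for RPS6KB1 and -0.09 for RPS6KB2, and the sign of both turned with centring. RPS6KB1 had an FDR of 0.00015 at a fold this close to 1, whereas PRKAA1 had an FDR of 0.578 at a value of -0.04; why these differ was not tested.

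Set by their known effect on mTORC1, the inhibitors and the activating components had like medians but unlike spreads. This grouping was made after the values were seen and is given as a description. The 12 inhibitors (the sestrins, DDIT4, DEPTOR, AKT1S1, and the TSC and GATOR1 subunits) had a median of -0.18 and ranged from -2.04 to 2.84, with 3 called higher, 2 called lower and 7 neither. The 20 activating components (RHEB, the Rag, Ragulator, folliculin and GATOR2 subunits, MTOR, RPTOR and MLST8) had a median of -0.19 and ranged from -0.75 to 0.48, with 5 called higher, none lower and 15 neither. With a fold of 1.2 asked of both directions, 5 of these 20 were higher and 6 lower, where 15.9% and 25.6% of all genes were, and with 0.75 asked of both none was called. The 12 inhibitors had 3 higher and 4 lower at a fold of 1.2. The 10 genes of AMPK and its upstream kinases had a median of 0.21, with 5 called higher and none lower, or 1 lower (CAMKK2) at a fold of 1.2. Of the 7 members called at 0.75 in either direction, 5 were inhibitors of mTORC1 (DDIT4, SESN2, SESN1, DEPTOR and SESN3). They are 41.7% of the 12 inhibitors, where 19.9% of all genes were called, in a group made with these values known. The other 2 were the AMPK subunits PRKAG1 and PRKAB2. RICTOR, called higher, and the S6 kinases, not called, are in none of these groups.

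**Figure D3:**
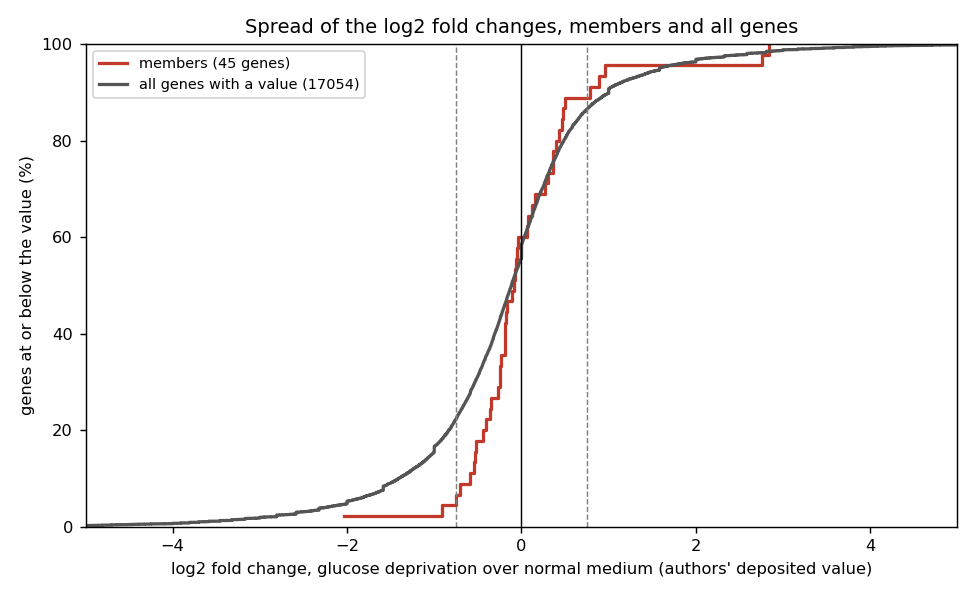
Share of genes (y axis, %) at or below each log2 fold change (x axis) for the 45 members and for all 17054 genes with a value, with dashed lines at -0.75 and 0.75. The curve of the members is steeper between the dashed lines, where 84.4% of the members and 64.1% of all genes lie by size alone.

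Genes that surround this machinery were described from lists of the same pathways, with a list of controls of the ATF4 pathway beside them. Of 92 such genes in the table outside the 45 members, 91 had a value, of which 33 (36.3%) were called higher and 8 (8.79%) lower, where 15.9% and 13.1% of all genes were, with a median of 0.09. The sizes asked differ between the directions, and at a fold of 1.2 in both 33 were higher and 21 (23.1%) lower, where 25.6% of all genes were lower. These 91 genes, from lists chosen with earlier results of these data known, include the 7 controls of the ATF4 pathway. That pathway is the stress response for which SESN2 and DDIT4 are known targets. All 7 controls were called higher, with a median of 3.68, and they supply 7 of the 33 genes called higher. Among these controls were the transcription factors DDIT3 (CHOP) at 5.88 and ATF3 at 3.70, the glutathione-degrading enzyme CHAC1 at 4.02, and ATF4 itself at 0.99, each with an FDR listed as 0.

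Of 15 AMPK substrates with a value, 4 (26.7%) were called higher and 1 (6.67%) lower, where 15.9% and 13.1% of all genes were. But at a fold of 1.2 in both directions 4 were higher and 5 (33.3%) lower, where 25.6% of all genes were lower. GFPT1, the entry enzyme of the hexosamine pathway, stood at 1.81, the kinase BRAF at 0.56 and ULK1, the autophagy-initiating kinase, at 0.43. TBC1D4, a regulator of glucose transporter traffic, was lower at -0.86. The others lower at a fold of 1.2, named after their values were seen, were the acetyl-CoA carboxylases ACACA (-0.41, FDR 4.79e-29) and ACACB (-0.61, FDR 5.83e-05), TBC1D1 (-0.36), a relative of TBC1D4, and PFKFB3 (-0.40), an enzyme that stimulates glycolysis. TXNIP, an AMPK substrate and glucose-responsive gene, was listed without a value.

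Of 12 amino acid sensors, KICSTOR subunits and Rag regulators with a value, 3 were called higher and 1 lower, where 15.9% and 13.1% of all genes were. With a fold of 1.2 asked of both directions, 3 were higher and 2 lower, where 25.6% of all genes were lower. In a list of 12 genes such counts are too small to be told apart from the shares of all genes. CASTOR2, of the arginine sensor family, stood at -1.61, a level 3.06-fold lower (FDR 5.25e-50), and its relative CASTOR1 at -0.34 (FDR 0.472). KICSTOR, the complex that brings GATOR1 to the lysosome, had ITFG2 called higher at 0.62 (FDR 0.000296), while KPTN stood at -0.03 and KICS2 at -0.29, neither of which was called. LARS1, the leucyl-tRNA synthetase, was called higher at 0.47.

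Of 20 genes of mTORC2 and its input from PI3K and AKT, 4 (20.0%) were called higher and 3 (15.0%) lower, shares near the 15.9% and 13.1% of all genes. At a fold of 1.2 in both directions 4 were higher and 7 (35.0%) lower, where 25.6% of all genes were lower. The insulin receptor substrate IRS2 stood at 1.49, the adaptor GRB10 at 1.03 and the lipid phosphatase INPP4B at 0.47. The lower ones were DDIT4L, the kinase AKT1 at -0.95 and TTI1, a factor for the assembly of mTOR, at -0.95.

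Of 20 effectors of mTORC1, 8 (40.0%) were called higher and 1 lower, where 15.9% and 13.1% of all genes were. The sizes asked differ between the directions. With a fold of 1.2 asked of both, 8 were higher and 5 lower, where 25.6% of all genes were lower, a share near that of the effectors. With 0.75 asked of both, 3 were higher, where 6.85% of all genes were. The lysosomal transcription factor TFE3 stood at 1.39, the autophagy genes ATG13 at 1.31 and RB1CC1 at 0.77, while TFEB, the relative of TFE3, stood at -0.13 (FDR 0.571). The translation repressor EIF4EBP1 was called higher at 0.58, and its paralog EIF4EBP2 was called lower at -1.10.

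Of 16 genes listed as targets of TFE3 and its relatives, 9 (56.2%) were called higher and 1 (6.25%) lower, at either size asked of a decrease, with a median of 0.35. Over all genes the shares were 15.9% higher and 13.1% lower, or 25.6% lower at a fold of 1.2. WIPI1 (2.16), the autophagy receptor SQSTM1 (1.76) and the lysosomal sialidase NEU1 (1.03) had the highest values, and GPNMB (-1.28) was called lower. This list holds 5 members, of which FLCN, FNIP1 and RRAGC were called higher and RRAGD and FNIP2 were not. Of the 7 AMPK pathway genes outside the members, 1 was called higher, the phosphatase PPM1A at 0.33, and 1 lower, STRADB.

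**Figure D4:**
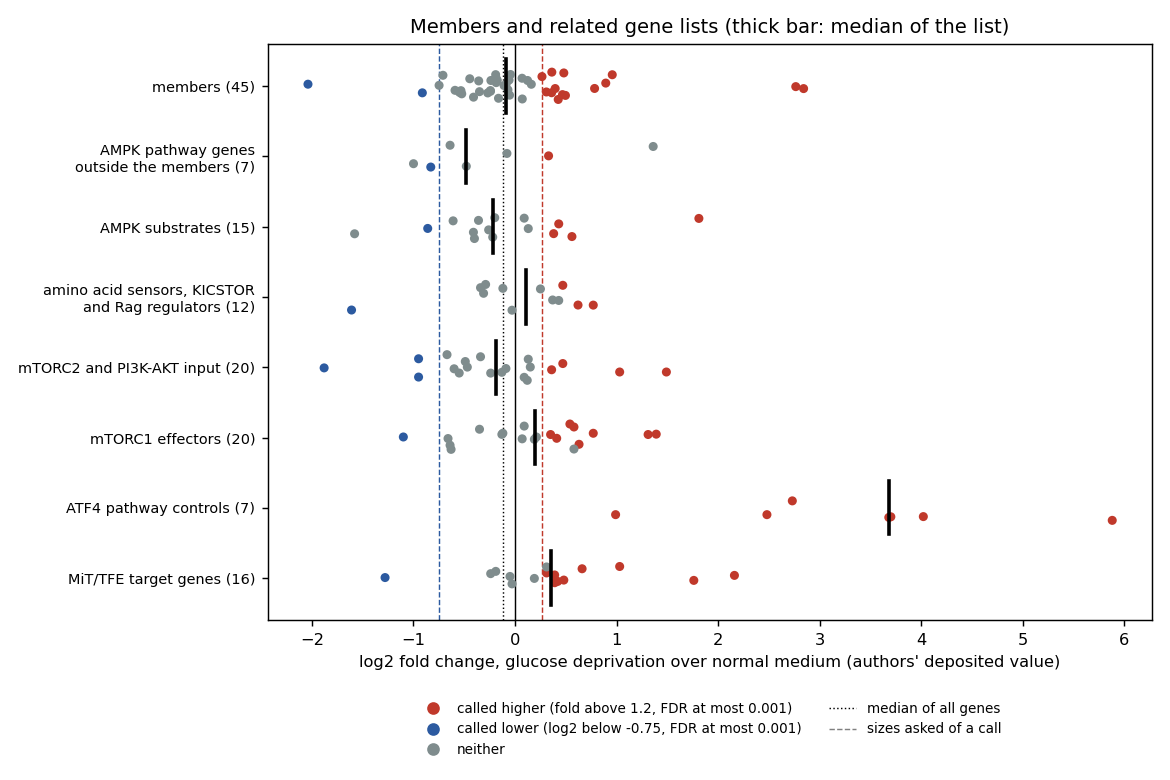
Log2 fold change (x axis) of the 45 members and of the genes of 7 related lists with a value (rows, number of genes in parentheses), with red for called higher, blue for called lower and grey for neither, and a thick bar at the median of each list. The ATF4 pathway controls lie between 0.99 and 5.88, and the medians of the other related lists lie between -0.48 and 0.35; the last row shares 5 genes with the first.

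The promoters of the members were also searched for TCACGTGA, the core of the element bound by TFE3 and its relatives. Of the 38 members with a promoter in the RefSeq table (51 promoters of the 35116), only TSC2 and RRAGB hold these letters, in 2 of the 51 promoters, and 0.98% of all promoters do. TSC2 also holds TGATGCAA, which 0.866% of all promoters hold and no other member does. The 2 motifs overlap in TSC2, where TCACGTGA starts at position -115 and TGATGCAA at -110, and RRAGB has its match at position -26. The stretches of 60 bases around these matches, with the motifs in capitals, are at chr16:2047844-2047903 for TSC2 and chrX:55717697-55717756 for RRAGB, both on the plus strand of GRCh38.p14.
TSC2: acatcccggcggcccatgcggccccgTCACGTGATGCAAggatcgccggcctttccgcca
RRAGB: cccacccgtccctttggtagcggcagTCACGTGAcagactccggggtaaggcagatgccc

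TSC2 stood at -0.06 and RRAGB at 0.36, so the gene with both motifs was not called. TGACGTCA was in none of the 51 promoters, beside 1.85% of all promoters. STRADA, DEPTOR, RRAGA, RRAGD, WDR24, MLST8 and AKT1S1 had no entry.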

How the data were processed

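Total RNA of 2 HCT116 libraries, 1 per condition, had been sequenced by the authors. The methods of the paper name Bowtie, RSEM and the build mm10, whereas Bowtie2, BWA and hg19 stand in the processing notes of the submitters, and tool versions are not given in the sources used here. Of 17987 gene IDs in the table, 17705 matched human RefSeq genes (GRCh38.p14). The deposited table holds the authors' own comparison only: a log2 fold change, a p-value of a Poisson test, and an FDR, which was treated as a score because 501 deposited values exceed 1 (up to 1.027). These columns were used as deposited, with no value of any single library. The sign was read from the column name, control first, and all 41 genes that the study lists as lower had negative values. A value is missing for 933 genes.

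Genes were called lower under -0.75 on the log2 scale and higher over 1.2-fold, with an FDR of at most 0.001. Every member is named by role; of the related lists, up to 3 called genes with the largest sizes in each direction are named, with ATF4, TFEB, TFE3, ULK1, EIF4EBP1 and KICSTOR genes. Not every gene named by this rule is reported here. The members and lists were chosen with earlier results of these data known. Genes were matched by symbol or RefSeq gene ID. Alternatives were other sizes, no FDR, a p-value under 0.01, centring on the median, and exact symbols. Of 7 markers of colon epithelium 6 had a value, of which 5 passed the FDR, and of 5 markers of other cells 4 had a value, of which none did. Without levels the cell type could not be checked, and the part of the marker differences in any result was not tested. Python 3.11.15, numpy 2.4.6, pandas 2.3.3 and matplotlib 3.10.9 were used.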

Additional observations from a re-analysis of the deposited data

How the results depend on the processing

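With 1 asked on the log2 scale of both directions, 1 member was lower (SESN3) and 2 were higher (DDIT4 and SESN2). With 0.75 asked of both, 5 members were higher, and 17 of the related genes outside the members against 33 at the smaller size. With a fold of 1.2 asked of both, 11 members were lower. Without the FDR, with a p-value under 0.01 and with centring, 2 members were lower and 14 higher, as in the report. Centring added 0.12 to every value, moved the median of the members to 0.03 and turned the sign of 6 members, none of them called; it lost and gained no call. The median was 0.11 over members with an FDR of at most 0.001 and -0.11 without SESN2 and DDIT4, a setting added after the values were seen, and exact symbols left it at -0.09. The CCAAT, E-box and TATA motifs were also added then. No paired analysis was possible because each condition has 1 library. Other pseudocounts could not be tried without levels. Depth is unknown, so the reads behind any one fold could not be given.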

Other observations

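The E-box CACGTG, added to the search after the values were seen, was in 7 of the 51 promoters of the members, 1 each of FNIP1, LAMTOR1, LAMTOR4, NPRL3, RRAGB, RRAGC and TSC2, and 7.26% of all 35116 promoters hold it. Of these 7 genes, FNIP1 (log2 fold change 0.31), RRAGB (0.36) and RRAGC (0.42) were called higher, and LAMTOR1 (-0.36), LAMTOR4 (-0.75), NPRL3 (-0.53) and TSC2 (-0.06) were not called. The TATA box TATAAA was in 2 of the 51 promoters, those of LAMTOR3 (0.39) and RPTOR (0.07), and 11.5% of all promoters hold it.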
